A study of Drosophila melanogaster with 3 samples.

Results

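The genes described here are 60 segmentation and homeobox transcription factor genes of *Drosophila melanogaster*, out of 13945 protein-coding genes on the 6 chromosome arms that carry peaks. They were taken by name from a fixed list of symbols and not by a binding value, but the list was made with earlier results of these data known. The measurement is chromatin immunoprecipitation followed by sequencing (ChIP-seq) of CG13894, a fly protein known only by its gene number. All 3 samples are whole embryos aged 2 to 24 h of the same transgenic line, in which CG13894 carries a C-terminal GFP and is pulled down with an antibody against GFP. The labels call the samples biological replicates 1, 2 and 3, and they form 1 group with no other genotype, treatment or stage beside it. What drives the tagged gene, and whether the untagged gene is also present, is not stated in the labels. Whole embryos of this age range mix many cell types, so strong binding in few cells and weak binding in many cannot be told apart.

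Values are peak lists on the dm6 (Release 6) assembly. The thresholded list holds 7434 peaks that passed a limit on the irreproducible discovery rate, a measure of how well peak ranks repeat between replicates. The pooled list and each replicate list end at 30000 peaks, so a gene missing from them is not shown to be free of binding. Every listed gene with a thresholded summit had the same best rank in the thresholded and pooled lists. Passing the limit thus went with pooled signal, and does not by itself show a peak in each replicate. Each peak has a summit, its highest point, and a signal value from the authors' peak caller. Signal scales differ between lists, so signal is given as the rank within a list (1 is strongest) or as a multiple of that list's median. For each replicate the 7434 strongest peaks were used unless the whole list is named, and medians for a replicate are over those. Read depth is not given in the files and is unknown. A summit was called a promoter summit of a gene when it lay within 500 bp of one of the gene's transcription start sites (TSSs), a gene-body summit when elsewhere in the gene span, and a flanking summit when elsewhere within 10 kb to either side of the span.

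In the fly embryo, maternal factors and gap genes divide the body axis into broad domains, pair-rule genes set up the periodic pattern of segments, segment polarity genes fix the borders within each segment, and Hox genes give each segment its identity. Most of these genes, and the homeobox genes that later pattern muscle, eye, appendage and nervous system, are known for large regulatory regions in which enhancers lie in introns and in the sequence between genes, often far from the promoter. Many are also classical targets of Polycomb group repression in cells where they are silent.

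The sequences under the summits that the results turn on are given on the plus strand of the Release 6 genome (RefSeq copy), 101 bp each and free of annotated exons. The summit lies at the centre except for h and zfh1, whose windows were shifted off an exon. Capitals mark matches, on either strand, to 6 short motifs that were searched: GAGAG (GAGA factor), TATCGATA (DREF), CAGGTAG (Zelda), TAATTA (a homeodomain core), CACGTG (an E-box) and GGGCGG (a GC-rich box). The opening group shows 4 of the 5 promoter summits, since the one of Antp lies in an exon and is not printed, the next the strongest summits away from promoters, and the last a Zelda and a DREF match.
h promoter (rank 2114, chr3L:8675658-8675758): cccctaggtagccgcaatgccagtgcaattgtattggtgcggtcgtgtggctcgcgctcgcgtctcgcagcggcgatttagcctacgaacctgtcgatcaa
toy promoter (rank 2224, chr4:989447-989547): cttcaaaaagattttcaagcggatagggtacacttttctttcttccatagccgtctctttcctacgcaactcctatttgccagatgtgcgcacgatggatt
ey promoter (rank 3840, chr4:697579-697679): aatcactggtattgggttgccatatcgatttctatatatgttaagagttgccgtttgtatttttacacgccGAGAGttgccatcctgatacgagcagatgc
zfh2 promoter (rank 4194, chr4:501603-501703): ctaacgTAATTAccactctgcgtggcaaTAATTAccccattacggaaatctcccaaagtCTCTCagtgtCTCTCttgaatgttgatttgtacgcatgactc
ey upstream (rank 873, chr4:696834-696934): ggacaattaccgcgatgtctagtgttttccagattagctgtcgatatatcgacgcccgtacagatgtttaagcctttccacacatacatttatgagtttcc
Antp upstream (rank 939, chr3R:7008179-7008279): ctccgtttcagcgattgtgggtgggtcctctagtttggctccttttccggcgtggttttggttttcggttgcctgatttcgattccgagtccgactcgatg
hth intron, stronger summit (rank 1028, chr3R:10571441-10571541): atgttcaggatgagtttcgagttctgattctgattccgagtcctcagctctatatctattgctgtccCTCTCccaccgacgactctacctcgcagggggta
hth intron, weaker summit (rank 1075, chr3R:10574277-10574377): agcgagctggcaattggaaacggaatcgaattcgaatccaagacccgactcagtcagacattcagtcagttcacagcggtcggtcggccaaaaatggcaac
mirr intron (rank 1269, chr3L:12700659-12700759): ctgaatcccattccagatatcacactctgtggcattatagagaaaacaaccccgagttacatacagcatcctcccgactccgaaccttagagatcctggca
zfh1 intron (rank 1404, chr3R:30781755-30781855): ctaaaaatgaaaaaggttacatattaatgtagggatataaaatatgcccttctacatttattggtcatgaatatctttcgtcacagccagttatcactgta
acj6 intron (rank 1722, chrX:15356790-15356890): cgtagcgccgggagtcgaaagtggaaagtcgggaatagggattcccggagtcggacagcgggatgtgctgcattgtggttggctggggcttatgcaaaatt
tin upstream (rank 1593, chr3R:21376426-21376526): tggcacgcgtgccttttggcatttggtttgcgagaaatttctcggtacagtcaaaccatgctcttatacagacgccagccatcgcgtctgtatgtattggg
zfh2 upstream (rank 1462, chr4:499214-499314): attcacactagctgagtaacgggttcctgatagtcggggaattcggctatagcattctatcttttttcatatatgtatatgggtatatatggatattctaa
Scr downstream (rank 1822, chr3R:6818944-6819044): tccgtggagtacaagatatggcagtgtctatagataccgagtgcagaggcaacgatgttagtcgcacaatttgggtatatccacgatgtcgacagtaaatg
caup downstream (rank 3987, chr3L:12622212-12622312): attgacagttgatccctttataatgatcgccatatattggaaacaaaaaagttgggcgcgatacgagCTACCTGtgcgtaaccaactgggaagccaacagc
Ubx downstream (rank 3899, chr3R:16655795-16655895): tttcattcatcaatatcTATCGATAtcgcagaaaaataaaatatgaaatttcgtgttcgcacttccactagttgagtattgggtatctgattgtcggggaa

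Within 100 bp of the summit, GAGAG was found at 28 of the 76 thresholded summits in the spans and flanks of these genes (36.8%), beside 28.1% of all 7434 thresholded summits. Among summits more than 500 bp from any TSS the shares were 28.8% (17 of 59) and 27.5%. The GC-rich box was found at 9.21% of the 76 and 8.15% of all, and the homeodomain core at 6.58% and 9.11%. The DREF, Zelda and E-box letters were each found at 3 of the 76 (3.95%), beside 3.19%, 0.794% and 2.66% of all. The printed promoter of zfh2 holds 2 homeodomain cores and 2 GAGA matches on the other strand, and that of ey 1 GAGA match, whereas none of the 6 motifs lies in the printed windows of h and toy. A match is a run of letters and not a measured site.

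Few of these genes carried a summit at their own promoter, and more carried one in an intron. In the thresholded list 5 of 60 had a promoter summit (8.33%, 95% Wilson interval 3.61 to 18.1%), beside 22.8% of all coding genes by the same rule. The strongest peaks of replicates 1, 2 and 3 gave 7, 6 and 7 of 60, a share of 11.1% ± 0.962 (SD, n = 3), beside 23.9% ± 0.961 for all coding genes. The lower share was thus seen in each of the 3 replicates. A gene-body summit outside the promoter was found in 14 of 60 (23.3%), beside 10.8% of all coding genes, with 15, 13 and 15 in the replicates (23.9% ± 1.93, SD, n = 3). A flanking summit was found around 27 of 60 (45.0%), beside 60.8% of all coding genes, with 29, 27 and 27 in the replicates. With summits at the promoters of other genes left out the order turned round, with 22 of 60 (36.7%) beside 34.1% of all coding genes. In all, 34 of the 60 genes (56.7%) had at least 1 thresholded summit in the span or flanks, beside 67% of all coding genes, and 26 had none. Of the 60, 11 had a gene-body summit but no promoter summit, and 18 had flanking summits only.

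**Figure D1:**
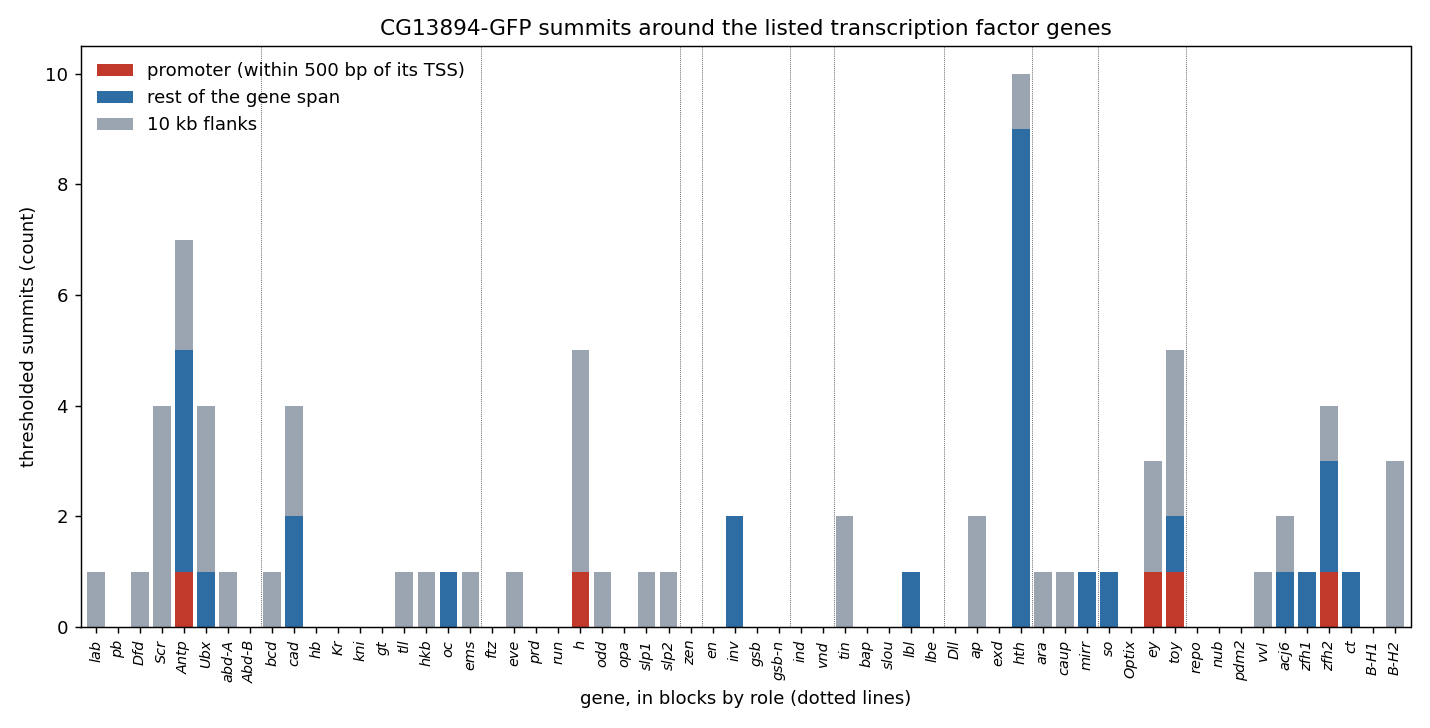
Thresholded summits per gene (vertical axis, count) for the 60 genes along the horizontal axis, in blocks by role. Bars stack promoter, gene-body and 10 kb flank summits. Red promoter segments stand at 5 genes, hth has the tallest bar with 10 summits, and 26 genes have no bar.

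Gene length goes with the gene-body count. These genes have a median span of 10.9 kb, beside 2.17 kb for all coding genes. Among genes with a span of 10 kb or more, 14 of the 31 listed genes (45.2%) had a gene-body summit, beside 52.6% of all coding genes of that length. At the promoter the same long genes gave 4 of 31 (12.9%), beside 44.6%. Lengths within this subset were not matched, and the part of length in these shares was not tested. Both comparisons were added after the data were seen.

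Chromosome arm also goes with the promoter count. The 3 listed genes on arm 4, ey, toy and zfh2, all had a promoter summit, whereas 35 of all 80 coding genes on that arm did (43.75%). On the other arms 2 of 57 listed genes did (3.51%), beside 22.6% of all coding genes there. The part of the arm in the count was not tested.

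Because the genes differ in length, summits were also counted per length of promoter, intron and flank. The thresholded list had 5.57 summits per 100 kb of these genes' promoters, 3.24 per 100 kb of their introns, 3.84 per 100 kb of intergenic flank and 0 in exons outside promoters. The replicates gave 8.17 ± 1.70, 3.28 ± 0.277 and 3.61 ± 0.217 per 100 kb for promoters, introns and intergenic flanks (SD, n = 3). Over all coding genes the thresholded densities were 19.6, 5.37 and 4.11, with 20.2 ± 0.632, 5.26 ± 0.0690 and 4.04 ± 0.204 in the replicates. Promoters of the listed genes were thus covered more densely than their introns in each replicate, by a factor of 2.79, 2.14 and 2.50, but this factor was 3.84 ± 0.172 for all coding genes. The density at promoters was 12.0 per 100 kb lower than over all coding genes (mean of 3 replicates, SD 2.03, lower in 3 of 3) and that in introns 1.98 lower (SD 0.241, lower in 3 of 3). Both differences, and that between promoter and intron within the listed genes (4.89 ± 1.44), gave p = 0.25 in an exact two-sided sign-flip permutation test, the smallest p that 3 replicates allow. The test could not give a lower value, so it decides nothing about these differences. In intergenic flanks the difference was -0.431 ± 0.422, and it was negative in replicates 1 and 2 only (exact p = 0.5).

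**Figure D2:**
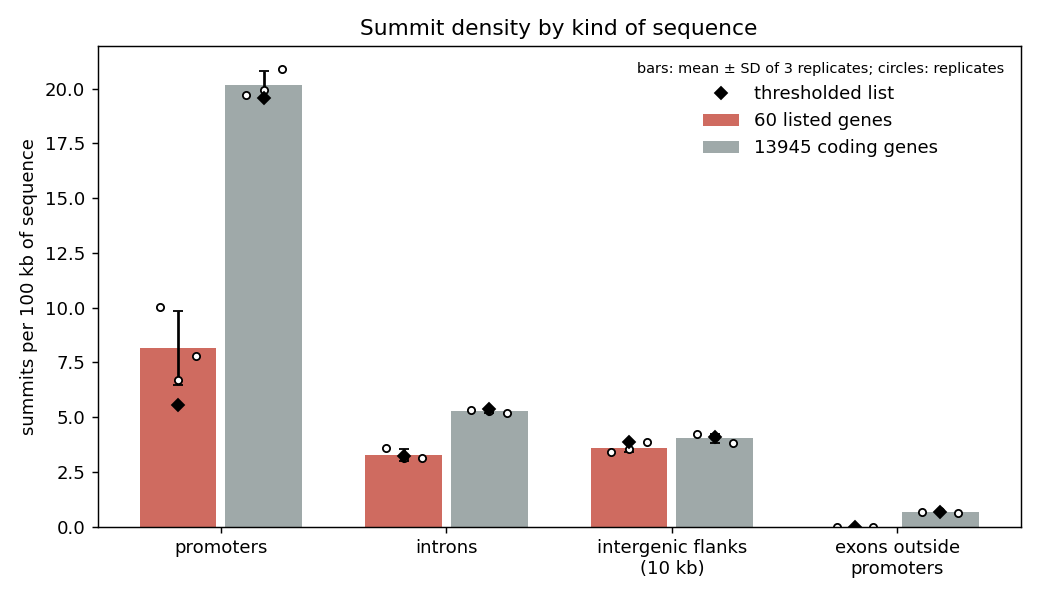
Summits per 100 kb of promoter, intron, intergenic flank and other exon sequence (vertical axis) for the 60 listed genes (red) and 13945 coding genes (grey). Bars are means of 3 replicates with SD, circles the replicates and diamonds the thresholded list. The gap between red and grey is widest at promoters, 8.17 against 20.2, and small in intergenic flanks, 3.61 against 4.04.

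Counted over summits, 59 of the 76 in the spans and flanks of these genes lay more than 500 bp from every annotated TSS (77.6%, 95% Wilson interval 67.1 to 85.5%). The interval treats summits as independent, although 10 of the 76 belong to hth alone. The replicates gave 70.6%, 80.6% and 78.7%, a mean of 76.6% ± 5.29 (SD, n = 3). Over the spans and flanks of all coding genes the share was 55.2% in the thresholded list and 54.0% ± 1.27 in the replicates. Lengths were not matched here (median span 10.9 kb beside 2.17 kb), and the part of length in these shares was not tested. All 28 gene-body summits lay in introns and 0 in exons, where all coding genes had 2788 intronic and 175 exonic summits outside promoters, the latter at 0.689 per 100 kb. In the pooled list the exons of these genes had 12 summits, 6.47 per 100 kb beside 4.32 for all coding genes. The 28 lay at a median of 18130 bp from the nearest TSS of their own gene (1456 to 85585 bp). Of the 44 flanking cases, 20 were upstream and 24 downstream, and 11 lay at the promoter of another gene. A shared summit, rank 4466, lies between slp1 and slp2 and is counted for both. It lay in a peak of replicates 2 and 3 but in none of replicate 1.

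In strength these summits lay somewhat below the middle of the list. The best of the 76 ranked 873 of 7434, the median rank was 4120, and 29 (38.2%) were in the stronger 50% of the list. Among the strongest 1000 peaks there were 2 of the 76 (2.63%), beside 13.45% of the list. The median signal of the 76 was 317, beside 338 for the list. Promoter summits had a median signal of 355 (5 summits), intronic ones 310 (27) and intergenic flanking ones 324 (27), beside 365, 319 and 324 for the same classes over all coding genes. In the complete replicate lists, 69 of the 76 were found in all 3, and 41 (53.95%) lay in the 7434 strongest peaks of all 3, beside 60.6% of the thresholded list.

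Of the 5 promoter-bound genes, 2 (ey and toy) are eye determination genes. The Hox, pair-rule and neural, glial and sensory groups gave 1 each. All 5 had their promoter summit in the strongest peaks of all 3 replicates. h (hairy, listed as hry in the annotation, FBgn0001168, 3L from 8675759 to 8679253, plus strand) is a pair-rule gene that encodes a repressor of the basic helix-loop-helix type. Its summit, at 8675733 and 26 bp before the TSS, had rank 2114 and a signal of 455. In replicates 1, 2 and 3 it was at ranks 3455, 2949 and 2099, or 1.04, 1.13 and 1.36 times the median, so above the median in each. Replicate 1 had a further, stronger promoter summit at 8675549, 210 bp before the TSS, with rank 1778 (1.43 times the median). h is the shortest of the 5, and it also had 4 flanking summits, all weaker, at ranks 6098 to 7418.

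toy (twin of eyeless, FBgn0019650, arm 4 from 989725 to 1007922, plus strand) and ey (eyeless, FBgn0005558, arm 4 from 697689 to 721173, plus strand) encode the Pax6 factors that start eye development. The toy summit at 989497, 228 bp upstream, had rank 2224 and ranked 2596, 1814 and 2084 in the replicates (1.20, 1.41 and 1.36 times the median). The ey summit at 697629 lay 60 bp upstream with rank 3840, and ranked 3215, 4249 and 5681 (1.08, 0.931 and 0.785 times the median). Thus toy was above the median in all 3 replicates and ey in replicate 1 only. zfh2 (FBgn0004607, arm 4 from 501810 to 540874, plus strand), a zinc finger homeodomain gene of the nervous system and wing, had a summit at 501653, 157 bp upstream of the TSS. It had rank 4194 and ranked 3628, 5319 and 4032 in the replicates (1.02, 0.821 and 0.959 times the median), so above the median in replicate 1 only.

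Antp (Antennapedia, FBgn0260642, 3R from 6896253 to 6999228, minus strand), the Hox gene of the thorax, had its promoter summit at 6999076, 152 bp inside the gene from its outermost TSS. It had rank 3427 and ranked 3534, 3205 and 5615 in the replicates (1.03, 1.08 and 0.789 times the median), lowest in replicate 3. None of the 5 promoter summits was among the strongest 2000 peaks of the list. The farthest of them from a TSS was that of toy at 228 bp, and the nearest summits outside the 500 bp limit were those of hkb at 758 bp and ey at 805 bp.

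In 3 of the 5 promoter-bound genes, ey, Antp and zfh2, a summit away from the promoter outranked the one at the promoter. The strongest in the whole set lay 805 bp upstream of the ey TSS, at 696884 on arm 4, with a signal of 713 and rank 873. It ranked 1021, 1355 and 590 in the replicates, or 1.86, 1.63 and 2.41 times the median, above the ey promoter summit in each. The nearest TSS to it was that of ey. The other flanking summit of ey, at 695999 with rank 4008, lay 56 bp from the TSS of the neighbouring gene myo. Antp had a summit 9001 bp upstream, at 7008229, with a signal of 684 and rank 939. That summit ranked 1014, 1113 and 886 in the replicates (1.87, 1.79 and 2.01 times the median), and likewise exceeded the Antp promoter summit in all 3. zfh2 had one 2546 bp upstream of its TSS, rank 1462, at 1.71, 1.26 and 1.61 times the median in the replicates. In toy and h the order was the other way round, and the promoter summit was the strongest of the gene.

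hth (homothorax, FBgn0001235, 3R from 10507561 to 10639568, minus strand) encodes a homeodomain partner that brings Extradenticle into the nucleus and with it shapes Hox binding. It is the longest gene of the 60, with a span of 132 kb, and had the most thresholded summits, 10, of which 9 were intronic. These 9 make up 32.1% of the 28 gene-body summits of the set. The strongest, at 10571491 and 10574327, lay 42785 and 39949 bp from the nearest hth TSS with ranks 1028 and 1075. They were at 1.92, 1.98 and 1.56 and at 1.86, 1.95 and 1.53 times the median in replicates 1, 2 and 3, so all 6 values were above the median. A flanking summit 1098 bp upstream of hth ranked 2084. No thresholded summit lay at an hth promoter, although the pooled list had 4 there, the best at rank 10353.

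Other strong summits lay in introns of single genes. mirr (mirror, an Iroquois homeobox gene) had one at rank 1269, 7070 bp from its TSS, at 1.68, 1.99 and 1.44 times the median in the replicates. zfh1, a zinc finger homeodomain gene of mesoderm, glia and blood cells, had one at rank 1404, 1456 bp from an internal TSS, at 2.13, 1.27 and 1.14 times the median, highest in replicate 1. acj6, a POU homeodomain gene of olfactory neurons, had one at rank 1722, at 1.63, 1.58 and 0.918 times the median, so below the median in replicate 3. lbl (ladybird late), which marks cardiac and muscle precursors, had one at rank 2367, and inv (invected), the paralogue of en in the posterior compartment, had one at rank 2370 and one at rank 4561.

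Among the 10 genes with the strongest other summit, 3 had it next to another gene or downstream of their own span. The cad summit at rank 1448 lay 131 bp from the TSS of Pomp, a proteasome assembly gene, at 1.33, 1.47 and 1.84 times the median in the replicates. cad (caudal), a maternal and zygotic determinant of the posterior, had 2 weaker intronic summits of its own at ranks 4222 and 4690. The tin summit at rank 1593 was 2501 bp upstream of tin and 925 bp from a TSS of mod(mdg4), a chromatin insulator gene, at 1.59, 1.43 and 1.26 times the median. Scr (Sex combs reduced), the Hox gene of labium and prothorax, had 4 downstream summits between 29312 and 32037 bp from its TSS, the best at rank 1822 and at 1.23, 1.90 and 1.11 times the median.

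**Figure D3:**
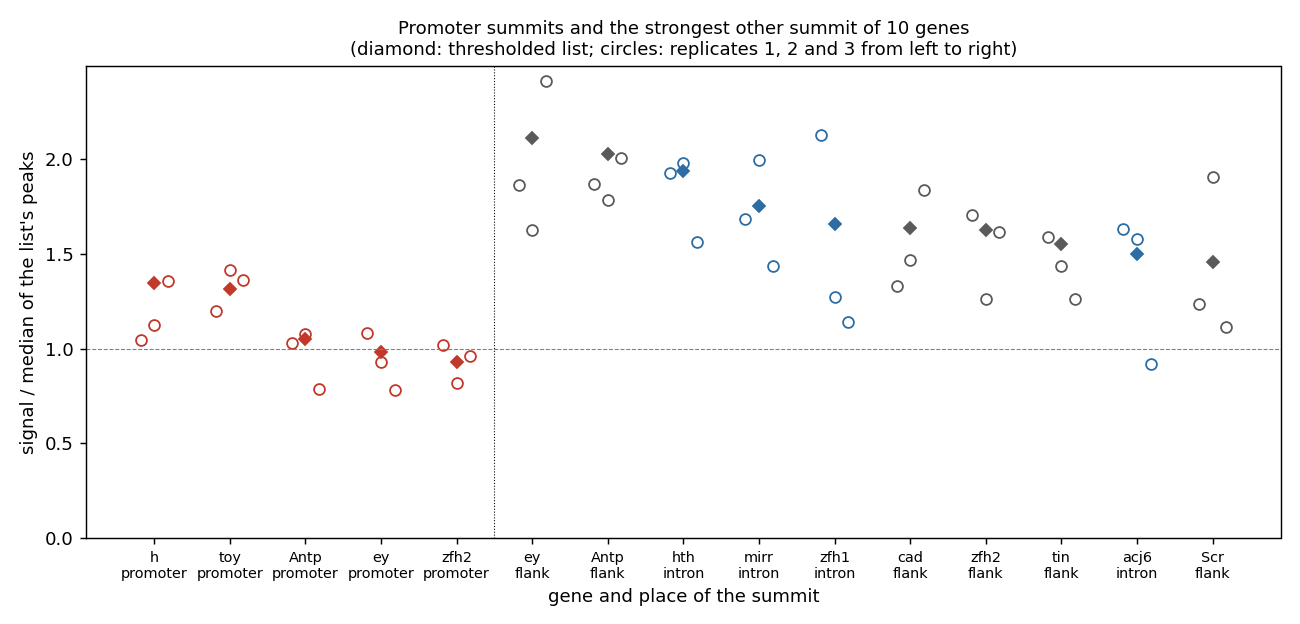
Signal divided by the median of the list's peaks (vertical axis) for the 5 promoter summits (red) and the strongest other summit of 10 genes (blue, intron; grey, flank). Diamonds are the thresholded list and circles replicates 1, 2 and 3 from left to right. As drawn, promoter summits lie between 0.785 and 1.41 in the replicates and the 10 other summits between 0.918 and 2.41, so the ranges overlap.

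Of the 8 Hox genes, 1 had a promoter summit, 2 a gene-body summit and 6 a flanking summit. Antp, with 7 summits, had 4 in introns at ranks 2485 to 4297, the strongest of which lies 201 bp from the TSS of lncRNA:CR43252. The intronic summit at rank 3694 lay in a peak of replicate 3 only. Ubx (Ultrabithorax), which specifies the haltere-bearing segment, had 1 intronic summit at rank 4363 and 3 flanking ones at ranks 3771 to 5575. The upstream one lay 1534 bp from the Ubx TSS, and the downstream ones were at the promoters of modSP and CG10324. lab, Dfd and abd-A had 1 flanking summit each, and those of lab and Dfd lay 51 and 54 bp from the TSSs of agt and lncRNA:CR45915. pb (proboscipedia) and Abd-B (Abdominal-B) had none, with spans of 34.3 and 45.0 kb. In the pooled list pb had 2 summits and Abd-B 1, none at a promoter. Among the strongest peaks of replicates 1, 2 and 3, Abd-B had 1, 2 and 2 summits in span or flanks, and pb 0 in each.

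The Hox genes lie in 2 clusters, and the summits there were unevenly placed. The Antennapedia complex from lab to Antp, 338 kb on 3R, held 14 thresholded summits, or 4.14 per 100 kb (4.05 ± 0.452 in the replicates, SD, n = 3), beside 5.61 per 100 kb over all arms. They lay between bcd and Dfd, between Dfd and Scr and inside Antp, with 0 over lab and pb. The bithorax complex, from Ubx to Abd-B and 316 kb long, held 9, or 2.85 per 100 kb (2.64 ± 0.183). Its strongest summit by far, at 16849950, lay 54 bp from the TSS of lncRNA:iab4, a noncoding RNA between abd-A and Abd-B, outside the 10 kb flank of every listed gene. That summit had a signal of 2285 and rank 83, and ranked 80, 90 and 78 in the replicates. The strongest summit counted for abd-A itself ranked 2325.

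**Figure D4:**
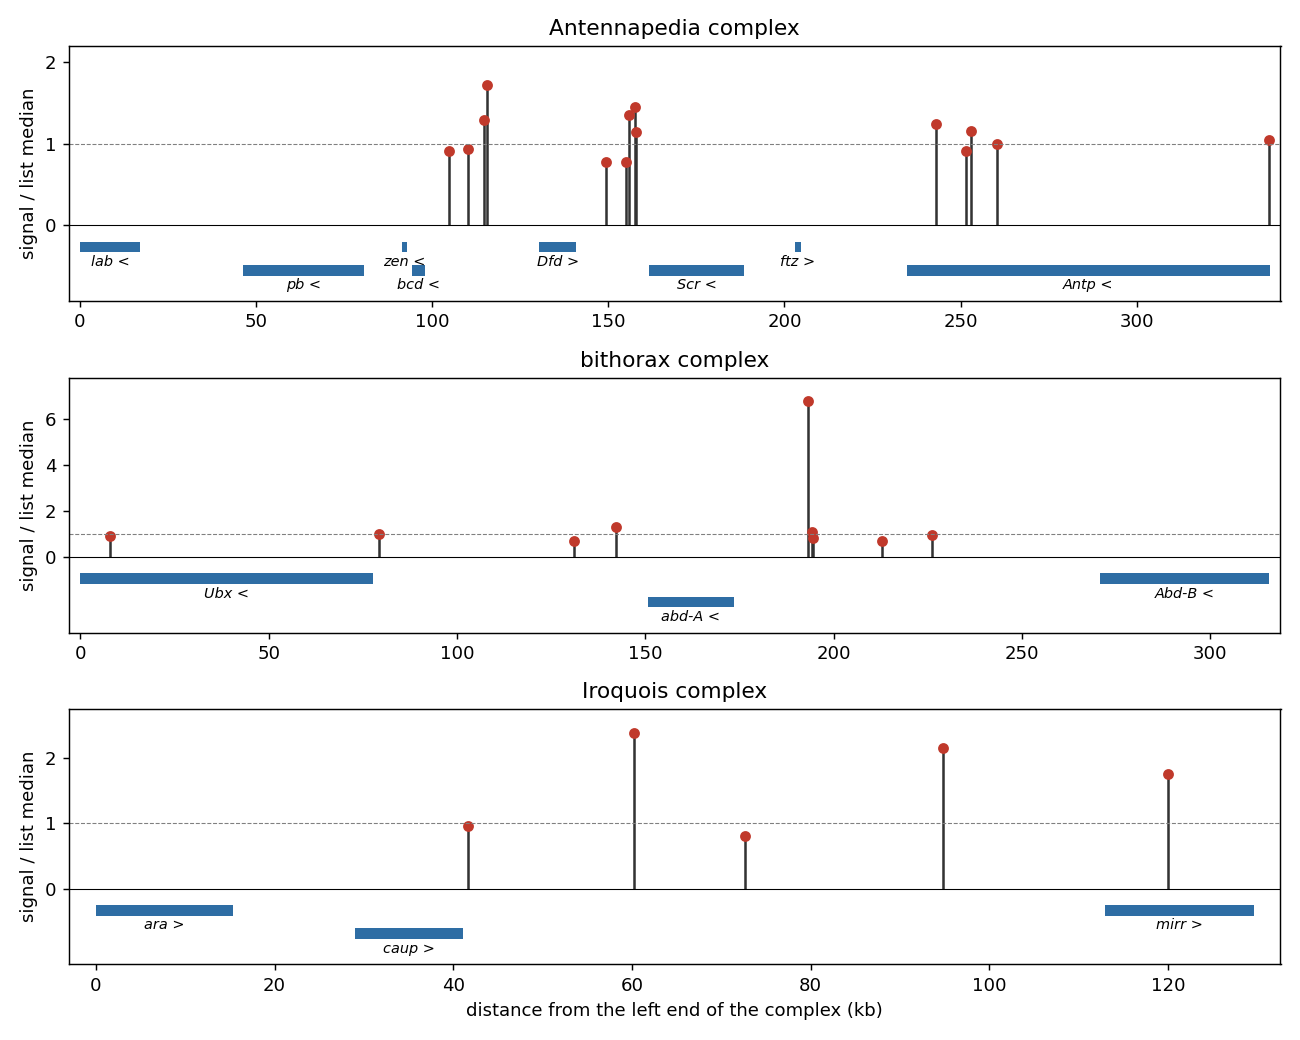
Thresholded summits along the Antennapedia, bithorax and Iroquois complexes: distance from the left end in kb (horizontal axis) against signal divided by the list median (vertical axis, linear). Blue bars are listed genes with arrowheads for strand. The tallest stem, at 193 kb in the bithorax complex, is the lncRNA:iab4 promoter. Of the bars drawn, Antp spans 5 stems and Ubx and mirr 1 each.

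Of the 10 maternal and gap genes, 0 had a thresholded promoter summit, 2 a gene-body and 5 a flanking one. The gap genes hb, Kr, kni and gt, which divide the trunk, had 0 summits in span and flanks. In the pooled list hb and gt had 1 and Kr 7, all flanking and none stronger than rank 12350, while kni had 0. The terminal gap genes tll and hkb had 1 flanking summit each, at ranks 6532 and 4047. bcd, the maternal anterior determinant, had 1 upstream at rank 4368. The head gap genes oc and ems had 1 each, an intronic one at rank 7135 and a downstream one at rank 5833.

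Of the 9 pair-rule genes, h had the only thresholded promoter summit. eve (even skipped), odd (odd skipped), slp1 and slp2 had 1 flanking summit each, at ranks 3562, 3459 and, for the shared one, 4466. The eve summit lay 4462 bp downstream of the TSS and ranked 3368, 3267 and 5002 in the replicates (1.06, 1.07 and 0.848 times the median), below the median in replicate 3. ftz, prd, run and opa had 0 thresholded summits.

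Of the 4 segment polarity genes, inv had 2 summits, both intronic, while en, gsb and gsb-n had 0. The neural column genes ind and vnd, the dorsal gene zen and the glial gene repo had 0 in the thresholded list but 11, 8, 4 and 6 in the pooled list, so theirs were weaker peaks in that list. Among the strongest peaks of replicates 1, 2 and 3, repo had 0, 2 and 1 summits, and ind, vnd and zen 0 in each. Among the 5 NK-type genes only tin and lbl had a thresholded summit, and bap, slou and lbe had 0 also in the pooled list.

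Of the 4 appendage and cofactor genes, hth had 10 summits and ap, the selector gene of the dorsal wing, had 2 downstream ones, which lay at the promoters of Cndp2 and vlc at ranks 6064 and 6698. Dll, which specifies distal limbs, and exd had 0. All 3 Iroquois genes had 1 summit, in an intron for mirr, downstream for caup at rank 3987 and upstream for ara at rank 3946, the last 35 bp from the TSS of sowah. The caup peak was in the list of replicate 1 only and the ara peak in those of replicates 1 and 2.

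Of the eye genes, so had 1 intronic summit at rank 6354 and Optix 0, beside ey with 3 and toy with 5. toy had 1 intronic summit (rank 3920) and 3 upstream ones (ranks 4635 to 7137). Of the 10 neural, glial and sensory genes, zfh2 had 4 summits, B-H2, a BarH-type homeobox gene of sensory organs, had 3 flanking ones at ranks 3540 to 6617, and acj6 had 2. ct (cut), which specifies external sensory organs, had 1 intronic summit at rank 5115 in a span of 70.4 kb, and vvl, a POU gene of trachea and brain, 1 downstream at rank 3867. The POU genes nub and pdm2, with spans of 40.5 and 29.1 kb, had 0, as did B-H1.

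The longest genes with no thresholded summit in span or flanks were Abd-B, nub, pb, pdm2 and Dll, the last with a span of 20.9 kb. In the pooled list 49 of the 60 genes (81.7%) had a summit in span or flanks, beside 84% of all coding genes, and 11 had 0. These 11 were en, prd, gsb, kni, opa, bap, slou, lbe, Dll, pdm2 and B-H1.

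Weaker peaks at the promoters were more frequent. In the pooled list 18 of 60 genes had a promoter summit (30.0%), beside 38.5% of all coding genes. Of these 18, 5 passed the threshold (27.8%), whereas 3175 of the 5373 coding genes with a pooled promoter summit did (59.1%). The 13 others were led by vvl at rank 8599, ct at 8842, mirr at 8961, Dfd at 9417 and ems at 9571, all below the 7434 of the threshold. Over spans and flanks, 76 of 422 pooled summits passed (18.0%), beside 24.8% of the whole pooled list.

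4 genes had a promoter summit in the strongest peaks of a replicate without being in the thresholded list there. They were tin (tinman), the homeobox gene required for the heart, in replicates 1 and 3, hth in replicate 1, Dfd in replicate 2 and vvl in replicate 3. The tin peaks were strong: 161 bp upstream of the TSS with rank 1215 (1.71 times the median) in replicate 1, and 185 bp upstream with rank 1484 (1.59 times) in replicate 3. No peak was listed there in replicate 2 or in the pooled list.

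A further 40 segmentation and homeobox genes, also listed by name, gave 9 with a promoter summit (22.5%), near the 22.8% of all coding genes, and 9 with a gene-body summit (22.5%), beside 10.8% of all coding genes and 23.3% of the 60. The strongest promoter summits were at bowl (rank 482), a zinc finger gene related to odd, and at ro (rough, rank 555), an eye homeobox gene whose summit lay 159 bp from the TSS of its neighbour T48 and 404 bp from its own. Then came nkd (rank 1318), an antagonist of Wnt signalling, fkh (rank 1675), a terminal forkhead gene, and ci (rank 1915), the Hedgehog effector. That ci summit lay 44 bp from the TSS of asRNA:CR43957 and 122 bp from that of ci. Lim3 (rank 2556) and nos (rank 3267) followed, with summits 172 and 49 bp from the TSSs of lncRNA:CR44905 and CG11779. Last were onecut (rank 3292) and tup (rank 5105). At bowl the promoter summit ranked 555, 515 and 408 in the replicates, stronger than at any of the 60 genes. odd itself had no thresholded promoter summit.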

How the data were processed

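The data are ChIP-seq peak lists from 3 biological replicates of 1 group. Per the labels and file notes, the authors called peaks on each replicate and on the pooled replicates, each with a control alignment, and derived the thresholded list from them. No source used here names the aligner, caller, settings or threshold. Deposited signal is the peak caller's own score. The deposited −log10 q-value, at its cap of 4.10 in 84.2% of thresholded peaks, was not used for results. The deposited summit offset gave summit positions. In 5 thresholded peaks it passed the peak's end and was set to the last base. The embryos' age, 2 to 24 h, comes from the source name, as the age label holds an impossible value.

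Genes and TSSs came from Ensembl release 115 (17896 genes), and 30540 of 30593 start codons (99.8%) read ATG on the reference genome. Symbols matched for 59 genes and a synonym (hry for h) for 1. Counting was tested on simulated summits with Python 3.11.15, numpy 2.4.6, pandas 2.3.3 and scipy 1.17.1. Figures used matplotlib 3.10.9. The genes, lists and motifs were chosen with earlier results of these data known, so no test was run across genes. Comparisons with all coding genes are descriptions, and the sign-flip tests over 3 replicates decide nothing about them. Intervals cover the counting of genes or summits only. Named are all genes with a thresholded promoter summit, the 10 with the strongest other summit, 5 each with most summits, longest without any, and strongest pooled-only promoter summit, and up to 10 promoter-bound other genes. Further genes are named to account for the whole list. Alternatives varied the promoter distance, list, replicates, TSSs, flank, overlap rule and motif window. 2 were added after the data were seen (without arm 4, and spans of 10 kb or more).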

Additional observations from a re-analysis of the deposited data

How the results depend on the processing

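The count of promoter-bound genes, 5, was 4 at a promoter distance of 200 bp, 6 at 1000 bp and 5 with 1 TSS per gene and with any part of the peak allowed. For each pair of replicates, the thresholded list, still made from all 3, was cut to summits inside the strongest peaks of both (pair cuts). The count was again 5 in each pair cut (8.33% beside 17.5 to 17.8% of all coding genes). All 5 genes had a promoter summit in the strongest peaks of all 3 replicates, so these cuts could hardly lower the count. It was 3 in the stronger 50% of the list (5.0% beside 14.2% of all coding genes), 18 in the pooled list (30.0% beside 38.5%) and 2 without arm 4 (beside 22.6%). Gene-body counts were 7 in the stronger 50% (11.7% beside 6.56%) and 22 in the pooled list (36.7% beside 19.7%). Flanking counts were 11 (18.3% beside 44.6%), 44 (73.3% beside 81.1%), 45 with 20 kb flanks (75.0% beside 80.4%) and 22 with summits at other promoters left out (36.7% beside 34.1%), where the order turned round. The ratio of promoter to intron density, 1.72 in the thresholded list, was 3.20 at 200 bp, 1.24 at 1000 bp, 2.53 in the stronger 50%, 1.39 in the pooled list and 2.62 with 1 TSS per gene, and 2.32 to 2.58 in the pair cuts. It was below that of all coding genes under each of these settings. The share of distal summits was 67.1% at 1000 bp, 84.4% in the pooled list, 70.5% with 20 kb flanks, and 78.9 to 85.1% in the pair cuts. GAGAG was at 21.1% of the summits in 100 bp windows, beside 14.1% of all. The cause of these shifts was not tested. No paired analysis was possible because there is only 1 group. With 5 promoter summits, 1 gene shifts the share by over 1 percentage point, and absence from lists that end at 30000 peaks does not show absence of binding.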

Other observations

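Beyond the 10 kb flanks, the Iroquois complex held 2 summits between caup and mirr that outranked every summit in the windows of the 60 genes. They lay at 12640898 and 12675507 on 3L, 12192 and 13681 bp from the nearest TSSs (those of lncRNA:CR43431 and lncRNA:CR44552), with signals of 805 and 728 and ranks 655 and 841. The first ranked 551, 595 and 1617 in replicates 1, 2 and 3 and the other 797, 672 and 1083. In the NK cluster, 178 kb from tin to slou, there were 2 thresholded summits, 1.12 per 100 kb in the thresholded list and in each replicate. The stronger lay 582 bp from the TSS of sp3, with rank 445 and ranks of 532, 402 and 421 in the replicates, and the other was the intronic summit of lbl. The stretch that holds nub and pdm2 (98.7 kb) had 0 thresholded summits and 1 pooled summit, or 1.01 per 100 kb, beside 22.7 pooled summits per 100 kb over all arms. The gsb and gsb-n stretch (24.3 kb) likewise had 0 and 1.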
